A study of Mus musculus with 10 samples.

Results

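The lipoxygenase and leukotriene genes described here are 8 mouse genes, Alox5, Alox5ap, Lta4h, Ltc4s, Alox12, Alox15, Ltb4r1 and Cysltr1. They were picked by name among the 23488 gene rows of an RNA-seq table by mapping its RefSeq transcripts to gene symbols. Each of the 8 was represented by 1 transcript, and all 8 passed the filter on low values (at least 1 FPKM in at least 2 libraries), as did 14061 genes in all. FPKM corrects the number of sequenced fragments for the length of the transcript and for library size, so levels can be set side by side between genes.

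The RNA came from the colon of C57BL/6 mice in 5 groups of 2 libraries each. The ASA group received azoxymethane (AOM, a colon carcinogen) at 10 mg/kg at 6 weeks of age, dextran sulfate sodium (DSS, which injures the colon lining) as a 7-day course at 1.2% in water, and a diet with 0.02% aspirin. The CUR group received AOM and DSS in the same way with a diet holding 2% curcumin. The ASA+CUR group received AOM and DSS with 0.01% aspirin and 1% curcumin, so each agent was at a lower dose than in its own group. The Model group received AOM and DSS with the AIN-93M diet alone. The Control group received saline in place of AOM, no DSS, and the AIN-93M diet. The labels call the tissue of the 4 AOM/DSS groups tumour and that of Control colon, whereas the protocol describes a frozen piece from which palpable tumours had been taken out. The labels state neither the age at tissue collection nor whether the libraries of 1 group are separate mice. The p-values therefore reflect the spread between libraries, part of which may be technical.

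Lipoxygenases add oxygen to polyunsaturated fatty acids such as arachidonic acid. In the leukotriene branch, 5-lipoxygenase works with its membrane partner FLAP to make the unstable epoxide leukotriene A4, which is turned either into leukotriene B4, an attractant of neutrophils, or into the cysteinyl leukotrienes, which act on smooth muscle and vessels. Other lipoxygenases oxidise the fatty acid at other carbons and make hydroxy acids such as 12-HETE, and the mouse Alox15 enzyme makes 12-HETE as well as 15-HETE. Aspirin is an inhibitor of cyclooxygenases, the enzymes that draw on the same arachidonic acid to make prostaglandins.

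Sums of FPKM per library lay between 515959 and 720895, and 12781 to 13283 genes per library reached 1 FPKM. The total read numbers are unknown, since FPKM removes them. Relative depths read from the steps between low values lay between 1.0 and 1.35, and they are rough. Log2 values of the 2 libraries of a group correlated across genes at 0.947 (CUR) to 0.986 (Control), and genes are not independent replicates. All 8 colon epithelium genes read were present in all 10 libraries, with summed FPKM of 1620.4 to 2236 in ASA, 2029 to 5317 in CUR, 1445 to 1752 in ASA+CUR and 1627 to 2298 in Model, against 2860.0 to 2906 in Control. Of these, 3 were lower in the AOM/DSS groups than in Control, Cdx1 and Slc26a3 among them, and none was higher, with a median log2 difference of -0.88 over the 8. Slc26a3, a chloride exchanger of the colon surface, was at 6.8 to 81.2 FPKM in the AOM/DSS libraries, against 295 and 278 FPKM in Control. Epcam and Vil1 did not pass the test. Of the cell marker lists read, smooth muscle had the furthest median log2 difference (-4.44). All 6 genes tested were lower in the AOM/DSS groups than in Control, with summed FPKM of 268 to 314 in ASA, 268 to 461 in CUR, 330.1 to 392 in ASA+CUR and 669 to 838 in Model, against 5285 to 8702 in Control. The part of this difference in the members' results was not tested. In tissue of mixed cells, fewer cells of a type and less RNA per cell cannot be told apart.

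AOM and DSS tissue was first set against Control. In the mean of the 4 AOM/DSS groups against Control, Alox12 and Alox15 rose, Alox5 and Ltc4s fell, and Alox5ap, Lta4h, Ltb4r1 and Cysltr1 did not pass the test (limma, Benjamini-Hochberg adjustment over all tested genes, threshold 0.05). These 4 of 8 members stand beside 31.5% of all tested genes past the threshold in that comparison. The 2 lipoxygenases that rose are those outside the leukotriene branch. The 2 genes that fell belong to that branch, whose other members, Alox5ap, Lta4h, Ltb4r1 and Cysltr1, did not fall. The count of 4 of 8 and this split describe single genes set against 2 Control libraries. They are no result about the members as a group or about either branch. The median log2 difference of the 8 members was 0.18, against 0.02 over all tested genes.

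**Figure D1:**
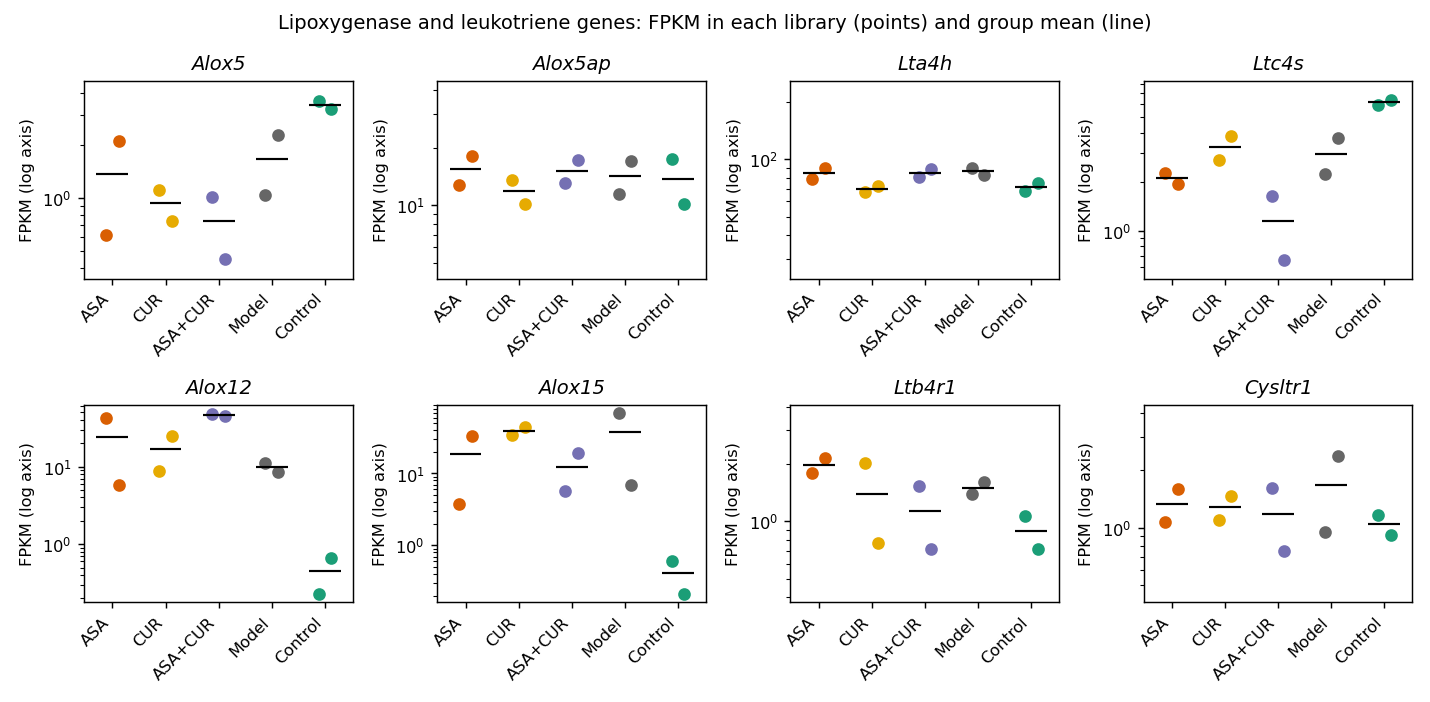
FPKM of the 8 members in each of the 10 libraries (points, log axis, 1 panel per gene) with the group mean as a line, for ASA, CUR, ASA+CUR, Model and Control. Alox12 and Alox15 lie above both Control libraries in all 8 AOM/DSS libraries, and Alox5 and Ltc4s lie below both in all 8, whereas the points of Alox5ap and Cysltr1 overlap between groups.

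The promoters of Alox12, Alox5 and Ltc4s are shown because these are the genes that changed and whose window was at hand. Windows were found for 5 of the 8 members. Each line gives the 250 bases before the RefSeq transcript start (RefSeq, GRCm38.p6), read 5′ to 3′ on the strand of the gene. The Alox12 start used lies just inside the outer bound of the gene, which covers more than 1 transcript. Capitals mark the GC box, the letters GGGCGG or their reverse complement CCGCCC.
Alox12, chr11:70255371-70255620, minus strand: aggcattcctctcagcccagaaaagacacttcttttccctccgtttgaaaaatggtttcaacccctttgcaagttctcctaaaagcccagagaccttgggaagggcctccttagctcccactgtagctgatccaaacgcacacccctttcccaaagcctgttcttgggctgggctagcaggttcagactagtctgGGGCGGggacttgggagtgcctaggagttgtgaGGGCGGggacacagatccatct
Alox5, chr6:116461179-116461428, minus strand: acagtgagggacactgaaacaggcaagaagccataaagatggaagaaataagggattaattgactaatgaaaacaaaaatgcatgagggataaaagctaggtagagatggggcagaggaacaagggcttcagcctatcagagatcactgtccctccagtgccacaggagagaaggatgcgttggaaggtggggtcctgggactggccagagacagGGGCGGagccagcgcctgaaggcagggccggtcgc
Ltc4s, chr11:50238533-50238782, minus strand: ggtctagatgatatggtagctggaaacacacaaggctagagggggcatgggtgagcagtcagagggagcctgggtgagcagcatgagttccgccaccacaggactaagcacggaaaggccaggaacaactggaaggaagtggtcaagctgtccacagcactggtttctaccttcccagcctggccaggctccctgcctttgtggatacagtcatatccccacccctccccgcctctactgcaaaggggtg
The Alox12 window held 2 GC boxes, the Alox5 window 1 and the Ltc4s window none. Of 32851 promoter windows of this length, 32.7% held at least 1. Among the other members with a window, Ltb4r1 had 1 and Lta4h none. These matches describe the letters and do not show that a factor binds.

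Alox12 encodes the platelet-type 12-lipoxygenase, which the epidermis also makes (chromosome 11, 70241457 to 70255380, minus strand, GRCm38.p6). It had 41.7 and 5.81 FPKM in the ASA libraries, 8.72 and 25.0 FPKM in the CUR libraries, 48.2 and 45.4 FPKM in the ASA+CUR libraries and 11.3 and 8.63 FPKM in the Model libraries, against 0.231 and 0.668 FPKM in the Control libraries. Every AOM/DSS library was above both Control libraries, and the spread among the 8 was 8.29-fold. The log2 difference, on the log2(FPKM + 1) scale that understates changes of low genes, was 3.76 ± 0.61 (SE, adjusted p = 0.00323) for the mean of the AOM/DSS groups against Control. This gene passed the threshold in each AOM/DSS group on its own, with log2 differences of 3.57 in ASA (adjusted p = 0.0153), 3.47 in CUR (adjusted p = 0.0218), 5.06 in ASA+CUR (adjusted p = 0.00307) and 2.92 in Model (adjusted p = 0.0401). Without Control replicate 0 or replicate 1 the pooled difference was 3.54 (adjusted p = 0.0492) or 3.98 (adjusted p = 0.0370), still past the threshold. The single-group calls were less steady. Without Control replicate 0 or 1 the adjusted p of Alox12 was 0.0999 or 0.0737 in ASA, 0.137 or 0.108 in CUR and 0.192 or 0.159 in Model, while in ASA+CUR it was 0.0304 or 0.0236. In ASA the difference was 2.25 without ASA replicate 0 and still passed. In CUR the adjusted p was 0.0770 without CUR replicate 1, and in Model it was 0.136 or 0.113 without Model replicate 0 or 1 and 0.0626 or 0.0630 without ASA+CUR replicate 0 or 1.

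By group mean, Alox12 was highest in ASA+CUR (46.8 ± 1.98 FPKM, SD, n = 2), then ASA (23.7 ± 25.4), CUR (16.8 ± 11.5), Model (9.95 ± 1.86) and Control (0.449 ± 0.309). The libraries of ASA+CUR and ASA did not overlap, nor did those of Model and Control, whereas ASA overlapped CUR and CUR overlapped Model. The split ran within the diets as well as between them. The 4 libraries with 25.0 FPKM or more were both ASA+CUR libraries, ASA replicate 0 and CUR replicate 1.

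These 4 libraries also had other levels of genes that mark position along the gut, a set of 3 genes chosen after their values were seen. Cdx2, an intestinal identity factor, was at 5.22 and 61.1 FPKM in the ASA libraries, 126 and 11.4 FPKM in the CUR libraries, 6.34 and 7.05 FPKM in the ASA+CUR libraries and 64.1 and 62.8 FPKM in the Model libraries, against 139 and 124 FPKM in the Control libraries. Hoxd13, a homeobox gene of the hind end of the body, was at 65.2 to 87.7 FPKM in the 4 libraries with high Alox12, at 0.0323 to 8.35 FPKM in the other 4 AOM/DSS libraries and, in Control, at 3.52 and 1.86 FPKM. Hoxb13, a second gene of that kind, was at 180.3 to 296 FPKM in the 4 libraries, 15.0 to 94.7 FPKM in the other 4 and 186 and 270 FPKM in Control. Low Cdx2 and high Hoxd13 thus moved with the highest Alox12 among AOM/DSS libraries. In the 4 AOM/DSS libraries with Cdx2 above 60 FPKM, Alox12 was at 5.81 to 11.3 FPKM, above both Control libraries.

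Squamous and platelet genes were read beside Alox12 because both kinds of cell are known to make its enzyme. Of 9 squamous epithelium genes tested, 5 (Krt14, Krt13, Krt4, Krt6a and Dsg3) were higher and none lower in the mean of the AOM/DSS groups against Control. The summed FPKM of all 12 listed genes was 99.6 to 383 in ASA and 64.3 to 108 in CUR. It was 140 to 844 in ASA+CUR and 16.2 to 166 in Model, against 2.11 to 3.01 in Control. Krt5, a keratin of basal squamous cells, was at 94.5 FPKM in ASA replicate 0, 212 FPKM in ASA+CUR replicate 0 and 10.3 FPKM in Model replicate 0, and at 0.161 FPKM or less in the other 7 libraries, Control included. Krt14, its partner keratin, was instead at 9.97 to 198 FPKM in all 8 AOM/DSS libraries, against 0.164 and 0.589 FPKM in Control. It was at 27.8 to 198 FPKM in the 4 with high Alox12. In the other AOM/DSS libraries it was at 57.3 (ASA replicate 1), 59.3 (CUR replicate 0), 51.7 (Model replicate 0) and 9.97 FPKM (Model replicate 1). In ASA+CUR replicate 1, with Alox12 at 45.4 FPKM, Krt5 was at 0.0662, Krt14 at 95.2, Krt13 at 21.6 and Krt6a at 13.3 FPKM. Without the 3 libraries with Krt5 above 1 FPKM, an alternative chosen after seeing the data, Alox12 differed by 3.37 between AOM/DSS and Control on the log2 scale (adjusted p = 0.00932), and 4 of 8 members passed as before. In single groups the adjusted p of Alox12 was then 0.0894 in ASA and 0.0693 in Model. Of 4 platelet and megakaryocyte genes tested, 2 were higher and none lower. The 2 were the platelet chemokine genes Ppbp and Pf4. The summed FPKM of all 6 listed genes was 51.6 to 125 in ASA and 28.0 to 52.4 in CUR. It was 69.8 to 129 in ASA+CUR and 35.0 to 84.1 in Model, against 16.3 to 17.0 in Control. Ppbp was at 3.03 to 86.7 FPKM in the AOM/DSS libraries, with the highest levels in ASA replicate 0 and ASA+CUR replicate 0, against 0.0899 and 0.0744 FPKM in Control, and Pf4 was at 21.7 to 71.8 FPKM, against 14.6 and 14.4 FPKM in Control. Gp1bb was at 2.46 to 12.7 FPKM in the AOM/DSS libraries, against 1.11 and 1.39 FPKM in Control (adjusted p = 0.0502). The platelet receptor gene Gp9 was listed at 0 in 6 libraries, and Gp1ba and Itga2b, the platelet integrin, were at 1.8 FPKM or below in all 10. The part of these cells in the Alox12 difference was not tested.

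**Figure D2:**
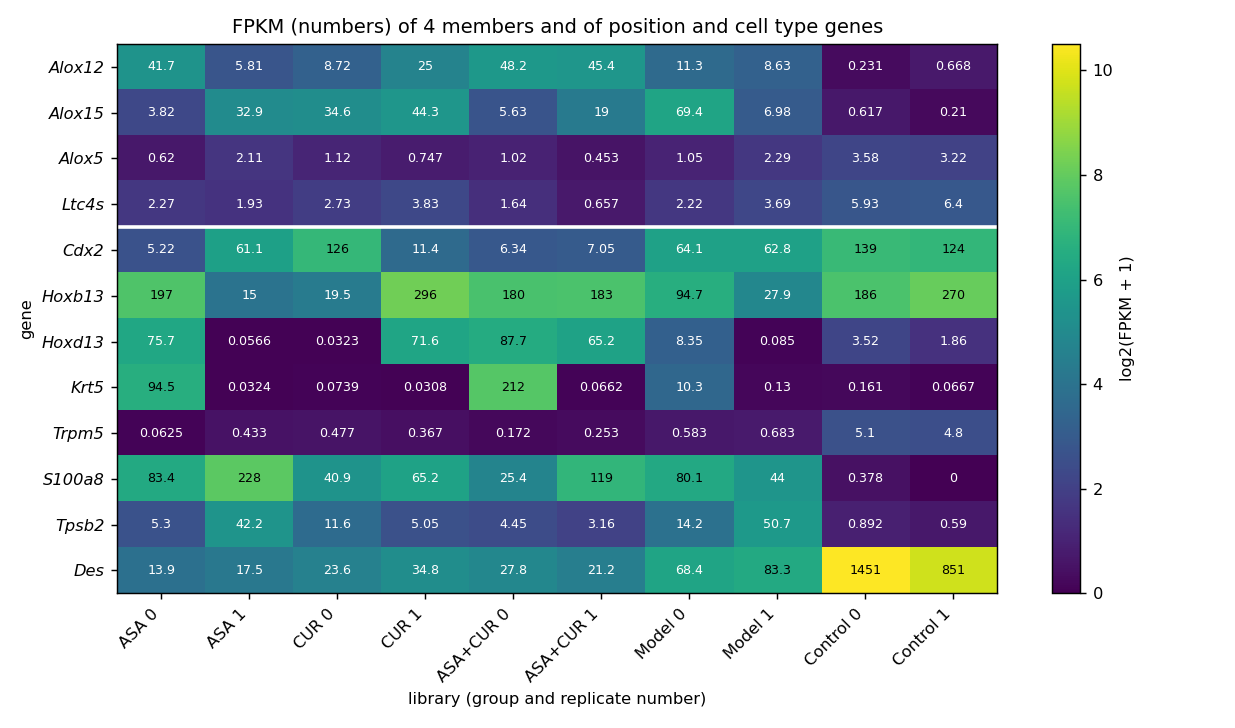
FPKM (numbers) and log2(FPKM + 1) (colour) of 4 members, above the white line, and of position and cell type genes, below it, in each library from ASA to Control. Alox12 is at 41.7, 25.0, 48.2 and 45.4 FPKM in the 4 AOM/DSS libraries where Cdx2 is at 11.4 FPKM or less. Krt5 is at 94.5 and 212 FPKM in 2 of these 4 and at 0.0662 FPKM or less in the other 2.

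Alox15 encodes the 12/15-lipoxygenase of macrophages, eosinophils and some epithelia (chromosome 11, 70344147 to 70390538, minus strand). It had 3.82 and 32.9 FPKM in the ASA libraries, 34.6 and 44.3 FPKM in the CUR libraries, 5.63 and 19.0 FPKM in the ASA+CUR libraries and 69.4 and 6.98 FPKM in the Model libraries, against 0.617 and 0.210 FPKM in the Control libraries. All 8 AOM/DSS libraries were above both Control libraries, and they ranged over 18.2-fold among themselves, the widest of the 8 members. Replicates within ASA, ASA+CUR and Model differed widely, and those of CUR were close.

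For the mean of the AOM/DSS groups against Control the log2 difference of Alox15 was 3.79 ± 0.91 (SE, adjusted p = 0.0159). In single groups it passed in CUR (4.84, adjusted p = 0.0269) and Model (4.08, adjusted p = 0.0474), and gave 3.19 in ASA (adjusted p = 0.0827) and 3.04 in ASA+CUR (adjusted p = 0.0804). With a pseudocount of 0.1 Alox15 also passed in ASA (4.59, adjusted p = 0.0337) and ASA+CUR (4.47, adjusted p = 0.0305). Without the 3 libraries with Krt5 above 1 FPKM, the Alox15 differences were 4.60 in ASA, 3.84 in ASA+CUR and 2.51 in Model. Each of these groups then had 1 library. Without Control replicate 0 or 1 the pooled Alox15 difference was 4.0 (adjusted p = 0.10) or 3.58 (adjusted p = 0.133). The Model call had an adjusted p of 0.0602 or more without any 1 of Control replicate 0 or 1, Model replicate 0, either CUR library or either ASA+CUR library, and the difference was 2.51 without Model replicate 0. The CUR call had an adjusted p of 0.125 or 0.159 without Control replicate 0 or 1, and of 0.0819 or 0.0736 without CUR replicate 0 or 1. Conversely, Alox15 passed in ASA without ASA replicate 0 (adjusted p = 0.0407) or either Model library (0.0449 each), and in ASA+CUR without either Model library (0.0430 each).

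By group mean, Alox15 was highest in CUR (39.4 ± 6.85 FPKM, SD, n = 2), then Model (38.2 ± 44.2), ASA (18.4 ± 20.6), ASA+CUR (12.3 ± 9.46) and Control (0.413 ± 0.288). Each group overlapped its neighbour in this order, except that ASA+CUR lay above Control. Alox12 and Alox15 did not share an order. ASA replicate 0 and ASA+CUR replicate 0 were among the 3 highest for Alox12 and were the lowest AOM/DSS libraries for Alox15.

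Macrophage and eosinophil genes were read beside Alox15. Of 11 macrophage and monocyte genes tested, 7 were higher and 1 lower in the AOM/DSS groups, with summed FPKM of 551 to 1426 in ASA, 682 to 948 in CUR, 596 to 680.3 in ASA+CUR and 735 to 1805 in Model, against 266 to 349 in Control. The highest sum was in Model replicate 1, where Alox15 was at 6.98 FPKM. Of 4 eosinophil genes tested, none was higher and 1 was lower. The summed FPKM of all 8 listed genes was 1.97 to 4.64 in ASA and 3.39 to 7.28 in CUR. It was 1.80 to 3.68 in ASA+CUR and 4.60 to 11.2 in Model, against 2.18 to 9.51 in Control. Ear1 was listed at 0 in all 10 libraries and Epx, eosinophil peroxidase, at 0.0514 FPKM or less. Il5ra, the interleukin receptor chain of eosinophils, was at 0.174 to 2.16 FPKM in the AOM/DSS libraries, against 0.168 and 0.0397 FPKM in Control (adjusted p = 0.224). Prg2, an eosinophil granule gene, was at 0.203 to 8.25 FPKM in the AOM/DSS libraries, against 1.47 and 0.814 FPKM in Control (adjusted p = 0.843). Siglecf was at 0.173 to 0.627 FPKM in the AOM/DSS libraries, against 1.25 and 1.01 FPKM in Control. Ear2 was at 4.4e-06 to 3.05 FPKM in the AOM/DSS libraries, against 6.48 and 0.274 FPKM in Control. The part of macrophages and eosinophils in the Alox15 difference was not tested.

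Alox5 encodes 5-lipoxygenase (chromosome 6, 116410071 to 116461178, minus strand). It had 0.620 and 2.11 FPKM in the ASA libraries, 1.12 and 0.747 FPKM in the CUR libraries, 1.02 and 0.453 FPKM in the ASA+CUR libraries and 1.05 and 2.29 FPKM in the Model libraries, against 3.58 and 3.22 FPKM in the Control libraries. All 8 AOM/DSS libraries were below both Control libraries. The levels were low throughout, and 7 of 10 libraries reached 1 FPKM.

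The log2 difference of Alox5 was -1.07 ± 0.29 (SE, adjusted p = 0.0242) for the mean of the AOM/DSS groups against Control. It passed in ASA+CUR (-1.36, adjusted p = 0.0258) and gave -0.97 in ASA (adjusted p = 0.0920), -1.19 in CUR (adjusted p = 0.0632) and -0.76 in Model (adjusted p = 0.196). Without Control replicate 0 or 1 the pooled Alox5 difference was -1.01 (adjusted p = 0.185) or -1.13 (adjusted p = 0.148). The ASA+CUR call had an adjusted p of 0.141 or 0.111 without Control replicate 0 or 1 and of 0.0528 or 0.157 without ASA+CUR replicate 0 or 1. Conversely, Alox5 passed in CUR without ASA replicate 0 or 1 (adjusted p = 0.0361 or 0.0365) and in ASA without ASA replicate 1 (0.0448). With a pseudocount of 0.1 the differences of Alox5 were -1.62 for AOM/DSS and -2.15 for ASA+CUR, both past the threshold. From low to high, the group means were ASA+CUR (0.738 ± 0.403 FPKM), CUR (0.934 ± 0.265), ASA (1.37 ± 1.06), Model (1.67 ± 0.880) and Control (3.40 ± 0.261), and of these only Control lay apart from its neighbour.

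Alox5ap encodes FLAP, the membrane partner that presents arachidonic acid to 5-lipoxygenase (chromosome 5, 149265004 to 149288153, plus strand). It had 12.7 and 18.2 FPKM in the ASA libraries, 13.5 and 10.1 FPKM in the CUR libraries, 13.0 and 17.3 FPKM in the ASA+CUR libraries and 11.4 and 17.1 FPKM in the Model libraries, against 17.4 and 10.1 FPKM in the Control libraries. All groups overlapped. The log2 difference was 0.06 ± 0.25 for the mean of the AOM/DSS groups against Control, with a 95% interval of -0.52 to 0.64. Its level was above that of Alox5 in every library. Of its 1420 exonic bases, 189 overlap the antisense gene Gm19719, and without stated strand handling the reads of that stretch cannot be assigned with certainty.

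Lta4h encodes leukotriene A4 hydrolase, which makes leukotriene B4 (chromosome 10, 93453396 to 93484896, plus strand). It was the highest of the 8 members by mean level over the 10 libraries, 79.3 FPKM. It had 79.1 and 89.5 FPKM in the ASA libraries, 67.3 and 72.6 FPKM in the CUR libraries, 80.4 and 88.5 FPKM in the ASA+CUR libraries and 90.1 and 82.4 FPKM in the Model libraries, against 67.7 and 75.0 FPKM in the Control libraries. Among AOM/DSS libraries it ranged over 1.34-fold, the narrowest of the members. Model, ASA+CUR and ASA overlapped each other and lay above Control and CUR, which overlapped. The log2 difference was 0.18 ± 0.11 for the mean of the AOM/DSS groups against Control (adjusted p = 0.238), with a 95% interval of -0.07 to 0.43.

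Ltc4s encodes leukotriene C4 synthase, which joins glutathione to leukotriene A4 (chromosome 11, 50236461 to 50238532, minus strand). It had 2.27 and 1.93 FPKM in the ASA libraries, 2.73 and 3.83 FPKM in the CUR libraries, 1.64 and 0.657 FPKM in the ASA+CUR libraries and 2.22 and 3.69 FPKM in the Model libraries, against 5.93 and 6.4 FPKM in the Control libraries. All 8 AOM/DSS libraries were below both Control libraries, and both ASA+CUR libraries were below every other library. The log2 difference was -1.16 ± 0.23 (SE, adjusted p = 0.00691) for the mean of the AOM/DSS groups against Control. It passed in ASA (-1.21, adjusted p = 0.0207) and ASA+CUR (-1.78, adjusted p = 0.00367), and gave -0.76 in CUR (adjusted p = 0.116) and -0.88 in Model (adjusted p = 0.0737).

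The ASA+CUR call of Ltc4s held without any single library, at an adjusted p of at most 0.0377. Without Control replicate 0 or 1 the pooled Ltc4s difference was -1.20 (adjusted p = 0.0699) or -1.11 (adjusted p = 0.0899). The ASA call had an adjusted p of 0.107 or 0.130 without Control replicate 0 or 1, of 0.0575 or 0.0962 without ASA replicate 0 or 1, and of 0.0518 without the 3 libraries with Krt5. From low to high, the group means were ASA+CUR (1.15 ± 0.694 FPKM), ASA (2.1 ± 0.241), Model (2.96 ± 1.04), CUR (3.28 ± 0.778) and Control (6.17 ± 0.330). ASA+CUR lay apart from ASA and CUR from Control, while ASA overlapped Model and Model overlapped CUR. Of the 1014 exonic bases of Ltc4s, 268 overlap the antisense gene Gm26542, with the same limit as for Alox5ap.

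Tuft and mast cell genes were read beside Alox5 and Ltc4s because both cell types are known to make cysteinyl leukotrienes. Of 6 tuft cell genes tested, 4 (Trpm5, Pou2f3, Dclk1 and Gnat3) were lower in the AOM/DSS groups and 1 (Avil) was higher. Trpm5, the tuft cell cation channel, was at 0.0625 to 0.683 FPKM in the 8 AOM/DSS libraries, against 5.10 and 4.80 FPKM in the Control libraries. Avil, an actin-binding gene, took most of the sum of the tuft list in the AOM/DSS libraries, which was 34.6 to 36.6 FPKM in ASA, 25.5 to 37.2 in CUR, 37.7 to 38.1 in ASA+CUR and 21.8 to 33.7 in Model, against 20.1 to 21.5 in Control. Of 12 mast cell genes tested, 3 (Cma1, Tpsb2 and Hdc) were higher and 1 (Kit) was lower. The summed FPKM of the mast list was 44.8 to 234 in ASA, 90.1 to 297 in CUR, 40.8 to 45.7 in ASA+CUR and 191 to 215 in Model, against 30.2 to 209 in Control. Among lists read beside other members, 7 of 9 neutrophil genes tested were higher. Of 11 macrophage and monocyte genes tested, 7 were higher and 1 was lower. The part of any of these cells in the Alox5 and Ltc4s differences was not tested.

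The 2 receptor genes were low. Ltb4r1 encodes the high-affinity leukotriene B4 receptor of neutrophils and other leukocytes (chromosome 14, 55765962 to 55768492, plus strand). It had 1.79 and 2.15 FPKM in the ASA libraries, 2.02 and 0.766 FPKM in the CUR libraries, 1.54 and 0.715 FPKM in the ASA+CUR libraries and 1.38 and 1.62 FPKM in the Model libraries, against 1.07 and 0.719 FPKM in the Control libraries. Of the 8 AOM/DSS libraries, 6 were above both Control libraries and 1 was below both. The log2 difference was 0.37 ± 0.24 for the mean of the AOM/DSS groups against Control (adjusted p = 0.263), with a 95% interval of -0.18 to 0.92. By group mean ASA was highest and did not overlap Model, and Model, CUR, ASA+CUR and Control followed, each overlapping the next. Neutrophil genes, by contrast, were higher for 7 of 9 tested, with S100a8 at 25.4 to 228 FPKM in the AOM/DSS libraries, against 0.378 and 0 FPKM in the Control libraries. The summed FPKM of the neutrophil list was 384 to 628 in ASA, 125 to 182 in CUR, 337 to 426 in ASA+CUR and 155 to 230 in Model, against 3.3 to 5.62 in Control. Ltf alone gave 166 of the 384 FPKM in ASA replicate 0 and 335 of the 426 FPKM in ASA+CUR replicate 0. In the other AOM/DSS libraries Ltf was at 1.23 to 14.3 FPKM.

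Cysltr1 encodes a cysteinyl leukotriene receptor (chromosome X, 106576509 to 106603679, minus strand). It had 1.07 and 1.59 FPKM in the ASA libraries, 1.10 and 1.46 FPKM in the CUR libraries, 1.61 and 0.750 FPKM in the ASA+CUR libraries and 0.952 and 2.38 FPKM in the Model libraries, against 1.17 and 0.911 FPKM in the Control libraries. All neighbouring groups overlapped. The log2 difference was 0.19 ± 0.25 for the mean of the AOM/DSS groups against Control (adjusted p = 0.591), with a 95% interval of -0.38 to 0.76.

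Counted by group, the members past the threshold against Control were 1 higher (Alox12) and 1 lower (Ltc4s) in ASA, beside 22.5% of all tested genes. In CUR, 2 were higher (Alox12 and Alox15) and none lower, beside 15% of all tested genes. In ASA+CUR, 1 was higher (Alox12) and 2 were lower (Alox5 and Ltc4s), beside 29.5% of all tested genes. In Model, 2 were higher (Alox12 and Alox15) and none lower, beside 16.2% of all tested genes. These comparisons share the 2 Control libraries. A test of any difference among the 5 groups was passed by Alox12 (adjusted p = 0.0252) and Ltc4s (adjusted p = 0.0303), 2 of 8, beside 14.1% of all tested genes. No member passed it without Control replicate 0, Control replicate 1 or ASA+CUR replicate 1, and 1 did without ASA replicate 1 or ASA+CUR replicate 0. The counts of 2 of 8 in ASA, CUR, Model and the 5-group test and of 3 of 8 in ASA+CUR are each within 1 gene of these backgrounds and are no result about the members as a group.

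**Figure D3:**
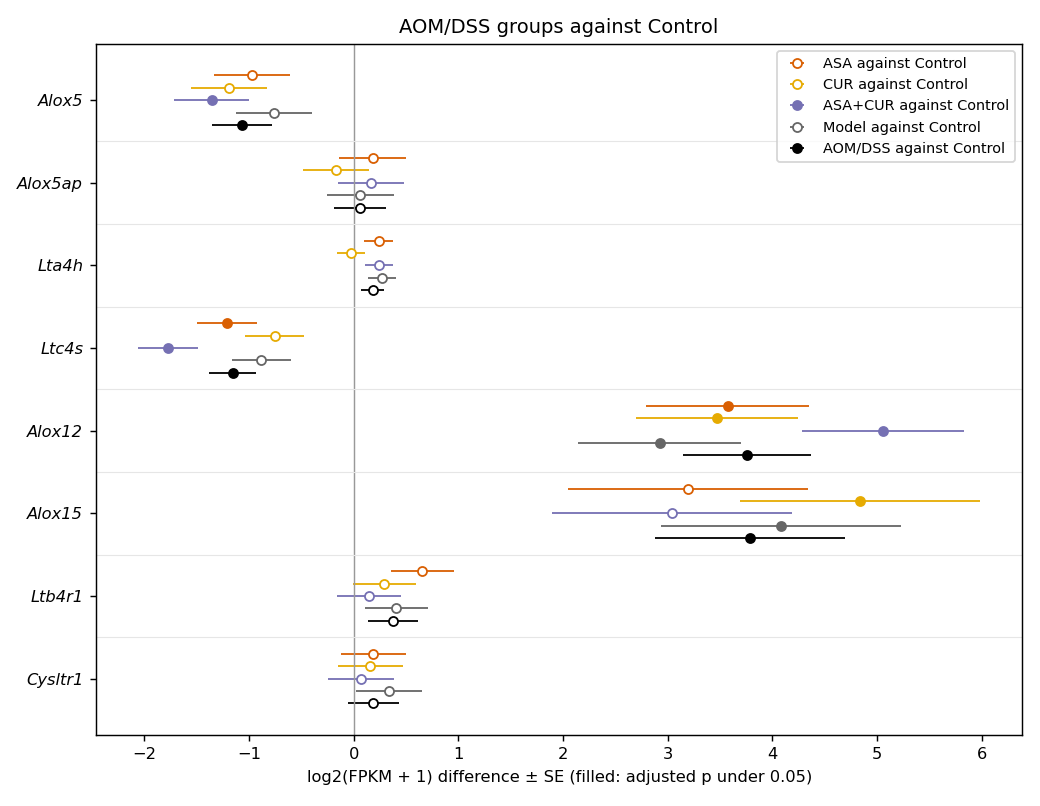
Log2(FPKM + 1) difference ± SE of each member in ASA, CUR, ASA+CUR, Model and the mean of these 4 groups (AOM/DSS), each against Control, with filled points where the adjusted p was under 0.05. Alox12 and Alox15 lie 2.92 to 5.06 above 0 and Alox5 and Ltc4s 0.76 to 1.78 below it, while the other 4 members lie within 0.654 of 0.

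The diets were then set against Model, which asks whether aspirin, curcumin or both change these genes in AOM/DSS tissue. No member passed the threshold in ASA, CUR or ASA+CUR against Model, beside 0.0142%, 0.00711% and 0.0142% of all tested genes. At limma's unadjusted p under 0.05 the counts were 0, 0 and 2 of 8, beside 335, 684 and 1416 of the 14061 tested genes. The 2 were Alox12 and Ltc4s in ASA+CUR. Alox12 averaged 46.8 ± 1.98 FPKM in ASA+CUR and 9.95 ± 1.86 FPKM in Model (SD, n = 2 each), a log2 difference of 2.14 ± 0.78 with a 95% interval of 0.34 to 3.93 (limma adjusted p = 0.463). Ltc4s averaged 1.15 ± 0.694 FPKM in ASA+CUR and 2.96 ± 1.04 FPKM in Model, a log2 difference of -0.90 ± 0.29 with an interval of -1.55 to -0.24 (adjusted p = 0.431). The ASA+CUR and Model libraries of both genes did not overlap, nor did those of Alox5, and none of these differences passed. The share of all tested genes without overlap was not counted. With 2 libraries a group, lack of overlap between 2 groups is therefore no result, here or for the other members. Cdx2 was at 6.34 and 7.05 FPKM in ASA+CUR and 64.1 and 62.8 FPKM in Model. Hoxd13 was at 87.7 and 65.2 FPKM in ASA+CUR and 8.35 and 0.0850 FPKM in Model. The part of gut position in the Alox12 difference was not tested.

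The intervals were wide where replicates spread. Against Model, Alox15 differed by -0.89 in ASA (95% interval -3.54 to 1.76), 0.76 in CUR (-1.89 to 3.40) and -1.04 in ASA+CUR (-3.69 to 1.60) on the log2 scale. Alox5 differed by -0.21 in ASA (-1.04 to 0.63), -0.43 in CUR (-1.27 to 0.40) and -0.60 in ASA+CUR (-1.43 to 0.24). Changes of several-fold in Alox15 therefore lie within the intervals in either direction. Lta4h had the narrowest intervals, with differences of -0.03 in ASA (-0.35 to 0.28), -0.30 in CUR (-0.61 to 0.02) and -0.03 in ASA+CUR (-0.35 to 0.29). For the genes in between, Alox5ap, Ltb4r1 and Cysltr1, the differences from Model lay between -0.27 and 0.25.

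The combination was also set against each agent alone, with the agents at unequal doses. No member passed in ASA+CUR against ASA or in ASA+CUR against CUR, and 0% of all tested genes did in either comparison. The unadjusted counts were 0 and 1 of 8, beside 399 and 1944 of the 14061 tested genes, so 1 of 8 lies near that background. The 1 was Ltc4s, at 1.15 ± 0.694 FPKM in ASA+CUR and 3.28 ± 0.778 FPKM in CUR, a log2 difference of -1.02 ± 0.29 with an interval of -1.68 to -0.36 (adjusted p = 0.303). Alox12 differed by 1.49 in ASA+CUR against ASA (-0.31 to 3.28) and by 1.59 in ASA+CUR against CUR (-0.20 to 3.38).

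**Figure D4:**
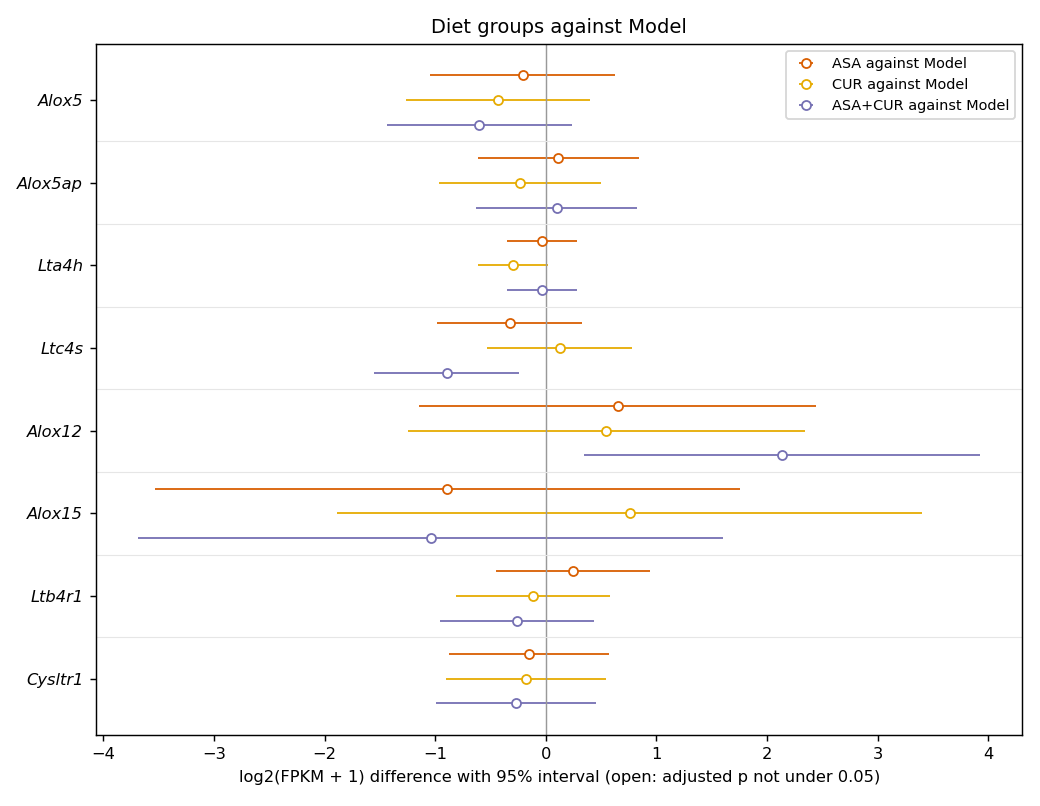
Log2(FPKM + 1) difference with its 95% interval for each member in ASA, CUR and ASA+CUR against Model, all points open because no adjusted p was under 0.05. Only the ASA+CUR intervals of Alox12 (0.34 to 3.93) and Ltc4s (-1.55 to -0.24) leave out 0.

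A list of 32 further genes of lipoxygenase and leukotriene metabolism places the members in their pathway, and 24 were tested. In the mean of the AOM/DSS groups against Control, 8 rose and 8 fell, and the median log2 difference was 0.52, against 0.02 over all tested genes. These 16 of 24 stand beside 31.5% of all tested genes. By group against Control, 3 were higher and 7 lower in ASA (22.5% of all tested genes), 4 and 3 in CUR (15%), 5 and 9 in ASA+CUR (29.5%), and 4 and 6 in Model (16.2%). None passed in any comparison among the AOM/DSS groups.

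Upstream, Pla2g4a, the cytosolic phospholipase that frees arachidonic acid, fell (log2 difference -0.63), with 18.3 ± 1.89 FPKM over the 8 AOM/DSS libraries and 28.7 ± 0.212 FPKM over the 2 Control libraries (SD). Among lipoxygenases, Alox12e, an epidermal enzyme of the mouse, rose (1.44, adjusted p = 0.0428), with 2.22 ± 1.24 FPKM in AOM/DSS and 0.108 ± 0.0632 FPKM in Control. Alox12b, Alox8 and Aloxe3, the other skin lipoxygenases, were too low to be tested. No stretch of 31 bases was shared between the Alox12 transcript and those of Alox15, Alox12e, Alox8 and Alox12b, so an exact match of that length belongs to 1 of them.

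Genes that move or convert cysteinyl leukotrienes split. Abcc4 and Abcc1, transporters that export leukotriene C4 and other conjugates, rose by 2.22 and 0.83. Dpep1, a dipeptidase that turns leukotriene D4 into E4, fell by 3.88, with 14.8 ± 14.0 FPKM in AOM/DSS and 169 ± 26.0 FPKM in Control, whereas Dpep2, a dipeptidase of the same family, rose by 0.98. Ggt1, a gamma-glutamyl transferase, was higher in Model against Control (2.25, adjusted p = 0.0297) and did not pass for the mean of the AOM/DSS groups (1.23, adjusted p = 0.0617). The glutathione transferases Mgst1 and Mgst2, of which Mgst2 can also make leukotriene C4, fell by 1.3 and 0.97.

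Genes that break down leukotriene B4 and related lipids also split. Cyp4f18, the neutrophil enzyme that oxidises leukotriene B4 in mice, rose by 1.32, and Ptgr1, a leukotriene B4 dehydrogenase, rose by 0.76. Cyp4f14, Cyp4f13 and Cyp4f16, relatives of Cyp4f18, fell by 2.83, 1.01 and 0.96. Cyp4f14 had 16.0 ± 11.4 FPKM in AOM/DSS and 93.1 ± 6.78 FPKM in Control. Ephx2, the soluble epoxide hydrolase, fell by 1.58. The receptors Cmklr1 and Gpr18, described as receptors of resolvins, rose by 0.84 and 0.78. The receptors Ltb4r2, Cysltr2 and Oxgr1 were too low to be tested.

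**Figure D5:**
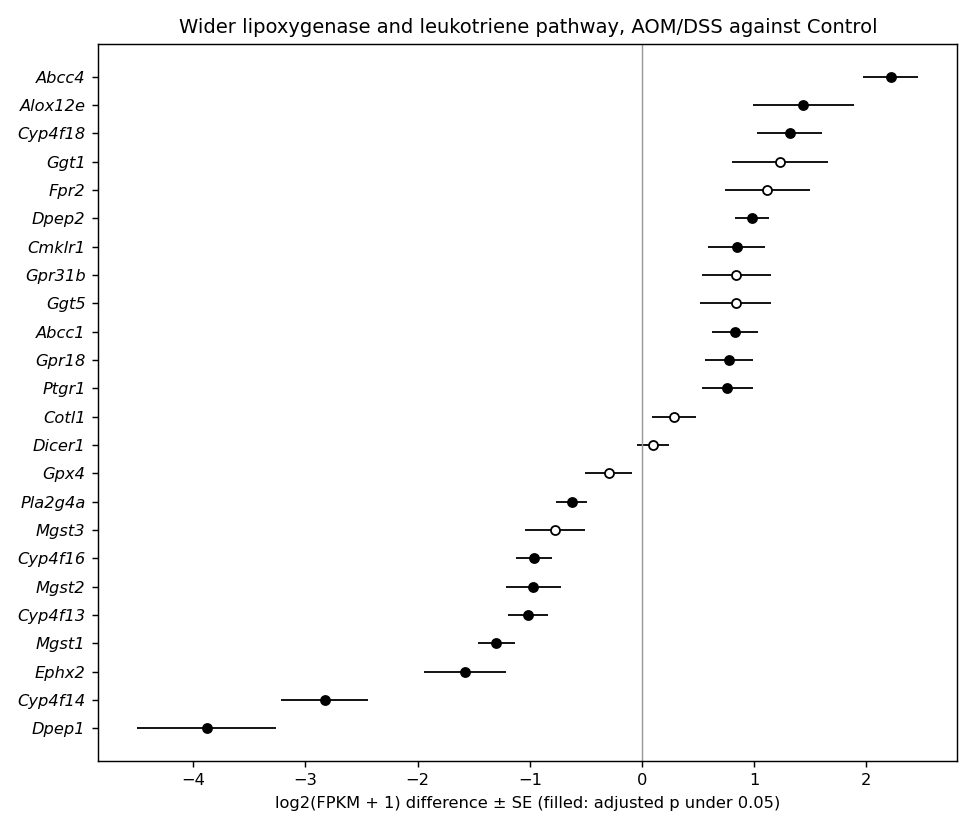
Log2(FPKM + 1) difference ± SE of the 24 tested genes of the wider pathway list for the mean of the AOM/DSS groups against Control, ordered by size, with filled points where the adjusted p was under 0.05. The range runs from Abcc4 at 2.22 to Dpep1 at -3.88, with 8 filled points on each side of 0.

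Genes whose levels followed a member most closely were found by Pearson's r of log2(FPKM + 1) over the 10 libraries, as a description in which the difference between AOM/DSS and Control tissue enters every value. Among those nearest to Alox12 were Prodh (0.983) and Gata5 (0.975). Gata5 had 12.3 and 1.85 FPKM in the ASA libraries, 5.35 and 5.66 FPKM in the CUR libraries, 10.9 and 11.8 FPKM in the ASA+CUR libraries and 4.11 and 3.15 FPKM in the Model libraries, against 0.546 and 0.494 FPKM in the Control libraries. Its high libraries were 3 of the 4 high Alox12 libraries. Nearest to Alox15 were T (0.956), Pak1 (0.939) and Ifitm2 (0.937). T, the mesoderm factor brachyury, was listed at 0 in both Control libraries and was highest in Model replicate 0, at 14.0 FPKM, as Alox15 was.

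Nearest to Alox5 were Fkbp5 (0.970), Cacna2d1 (0.960) and Sgce (0.958), and nearest to Ltc4s were Pars2 (0.980), Mppe1 (0.976) and Itm2b (0.968). Fkbp5 was at 11 to 26.2 FPKM in the AOM/DSS libraries, against 36.6 and 34.7 FPKM in the Control libraries. The members without a difference had lower r to their nearest genes, apart from Lta4h, whose nearest genes included Sympk (0.963) and Top1 (0.952). The 3 nearest were Map7d1 (0.887), Ccn2 (0.848) and Ccn1 (0.835) for Alox5ap, Alpk1 (0.931), Vnn1 (0.901) and Batf (0.894) for Ltb4r1, and Col6a2 (0.927), Dock10 (0.921) and a transcript without a gene name (0.916) for Cysltr1.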

How the data were processed

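RNA was sequenced from mouse colon in 10 libraries, 2 for each of 5 groups taken from the sample titles. The authors deposited FPKM values per RefSeq transcript. Per the submitters' processing notes, the builds were mm10 and GRCm38 and the tools were Cuffdiff, Bowtie2 2.1.0.0, TopHat2 2.0.9 and bcl2fastq 2.17.1.14, with no roles given. Cuffdiff estimates FPKM by a model, so these are not counts, no count was recovered, and total depth is unknown.

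Of 30073 transcripts, 29443 matched RefSeq names (GRCm38.p6) and 179 matched GENCODE names. FPKM was summed per gene, and tested genes had to reach 1 FPKM in 2 or more libraries. Tests used limma 3.58.1 in R 4.3.3 on log2(FPKM + 1), with an intensity trend and all 10 libraries in 1 fit (5 residual and 2.96 prior degrees of freedom). P-values were two-sided and Benjamini-Hochberg adjusted over 14061 genes, with a threshold of 0.05. AOM/DSS against Control weights the 4 AOM/DSS groups equally. Errors are SD over libraries or limma's SE. The script was tested on simulated data.

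The members and gene lists were chosen with earlier results of these data known. Named genes are the members, pathway genes past the threshold against Control and the 3 genes nearest each member, of which some are not reported here. Cdx2, Hoxb13, Hoxd13 and the marker genes named singly were chosen after their values were seen.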

Additional observations from a re-analysis of the deposited data

How the results depend on the processing

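The count of members past the threshold was recomputed under a pseudocount of 0.1, no filter on low values, median scaling, no intensity trend, the highest transcript only, the 2 compared groups only, a replicate block, and each library left out. A further alternative, chosen after seeing the data, left out the 3 libraries with Krt5 above 1 FPKM. No member past the threshold changed direction under any of these. For Model against Control (2 members), the count was 0 with no filter on low values, 0 with the replicate block, and 1 each with no intensity trend, the highest transcript only, and without the libraries with Krt5. It was 0 to 2 with single libraries left out. For ASA against Control (2 members) it was 1 without the libraries with Krt5 and 0 to 3 with single libraries left out. For CUR against Control (2 members) the range with single libraries left out was 0 to 3. For AOM/DSS against Control (4 members) it was 1 to 4, and the 1 left without either Control library was Alox12. For any difference among the 5 groups (2 members) it was 1 with no filter on low values, 1 with the replicate block, and 0 to 3 with single libraries left out. The counts of the other comparisons stayed within 1.5 times under the alternatives run. Alox12 in AOM/DSS against Control passed in 17 of 17 alternatives (log2 difference 3.37 to 5.17), and Alox12 and Ltc4s in ASA+CUR against Control in 18 of 18. Alox15 in Model against Control passed in 7 of 18 (2.51 to 5.65), and Alox12 in that comparison in 9 of 18. The pairing of replicate numbers was checked by correlating their deviations between groups, which gave -0.21 to 0.33 with both signs. No pairing common to all groups was seen. The highest values were 0.33 for ASA with ASA+CUR and 0.30 for Model with ASA. With 1 deviation per group, the check cannot decide on pairing among some groups. A fit that leaves a group with 1 library assumes that it varies like the others. Over all genes, the count past the threshold ranged from 322 to 3077 in Model against Control and from 1221 to 5414 in AOM/DSS against Control. Where a call changed, the cause was not tested. With 2 libraries a group and levels near 1 FPKM for Alox5, Ltb4r1 and Cysltr1, only large differences could pass.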
